A study of Mus musculus with 24 samples.

Results

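Polycomb group (PcG) transcripts were followed through 6 h of retinoic acid (RA) in mouse embryonic stem cells (ESCs), for the 8 genes Cbx2, Cbx6, Cbx7, Cbx8, Phc1, Phc2, Phc3 and Scmh1, chosen by their symbols from the 26264 genes of the count table. The rule used the symbols alone, although the set was proposed with earlier results of these data known. All 8 passed the filter on low counts in both cell lines. The 24 RNA-seq libraries come from BAP1-AID and UTX-AID ESCs at 0, 3 and 6 h of RA, without (−IAA) or with (+IAA) indole-3-acetic acid, with 2 libraries in each of 12 groups. In each line the endogenous protein carries a tag of hemagglutinin (HA) and an auxin-inducible degron (AID), placed at the C terminus of BAP1 (a deubiquitinase of H2AK119) or at the N terminus of UTX (an H3K27 demethylase, encoded by Kdm6a). Both lines stably overexpress TIR1, the ubiquitin ligase adaptor through which the auxin IAA leads the tagged protein to degradation, and were grown in serum with leukemia inhibitory factor (LIF), which was left out during RA. The labels give the RA time but do not name LIF, and none of the 24 libraries is marked as without both LIF and RA. RA, the loss of LIF and time in culture therefore cannot be told apart, and "RA" below stands for all of them. The paper describes IAA as a pretreatment, begun before RA. Every +IAA library, including those from before RA, is therefore from cells already exposed to IAA. Time since the start of IAA also rises with RA time in the +IAA arm, where these times cannot be told apart. Averages over the arms or over the RA times carry this as well, while comparisons within the −IAA arm do not. The study picked positive monoclonal cells, so each line stands for 1 clone, and no untagged or TIR1-free cells are among the 24 libraries. Nothing in the labels says that the 2 libraries of a group came from separate cultures, so p-values measure the spread between these libraries, which may be technical.

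CBX proteins are the subunits of canonical Polycomb repressive complex 1 (PRC1) that read trimethylated H3K27 through a chromodomain, and PHC proteins join such complexes to each other through a SAM domain. SCMH1 is a further SAM domain protein, with MBT repeats, that binds PHC proteins. A canonical PRC1 holds a single CBX, so the mix of CBX transcripts bears on which complexes a cell can build. CBX7 is known as the main CBX of ESCs, and an exchange of CBX7 for other CBX proteins such as CBX2 and CBX8 is known from later stages of ESC differentiation. The question put to the data was whether such an exchange is seen among the transcripts in the first 6 h of RA.

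The genes lie in separate groups of the mm39 genome. Cbx2 (chr11:118913788-118922100, plus strand) and Cbx8 (chr11:118927131-118931795, minus strand) are neighbours, and Cbx6 (chr15:79708097-79718889) and Cbx7 (chr15:79800001-79855320) are on the minus strand of chromosome 15. Phc1 is at chr6:122291091-122317558, Phc2 at chr4:128548459-128648100, Phc3 at chr3:30953515-31023566 and Scmh1 at chr4:120262412-120387384. Exons of Phc1 share 2646 bp with M6pr on the opposite strand, exons of Cbx6 share 563 bp with Npcd on the same strand, and exons of Cbx7 share 206 bp with Apobec3 on the opposite strand. The strand setting of the counting is not given in the sources used here, so reads of these overlaps cannot be told apart.

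The promoters of the 8 genes were searched for 4 hexamers on both strands, the core elements that RA receptors bind as repeats. These were AGGTCA (found in 14.03% of all promoters), AGTTCA (found in 11.9%), GGGTCA (found in 11.6%) and the hexamer GGTTCA (found in 8.84%). Sequences of 250 bases before the start are from RefSeq (GRCm38.p6), which gave 10 entries for 7 of the 8 genes (Cbx2 has none here), and capitals mark a hexamer. They are shown to set genes that fell (Cbx6, Cbx8 and Cbx7) beside the gene that rose most (Scmh1, its first start), in BAP1-AID ESCs at 6 h.
Cbx6, chr15:79834334-79834583, minus strand: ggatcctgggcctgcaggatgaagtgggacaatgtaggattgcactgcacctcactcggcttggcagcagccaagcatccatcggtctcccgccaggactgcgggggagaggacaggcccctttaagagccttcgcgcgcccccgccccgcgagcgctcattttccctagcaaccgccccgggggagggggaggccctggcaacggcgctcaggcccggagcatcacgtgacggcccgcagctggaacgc
Cbx8, chr11:119040914-119041163, minus strand: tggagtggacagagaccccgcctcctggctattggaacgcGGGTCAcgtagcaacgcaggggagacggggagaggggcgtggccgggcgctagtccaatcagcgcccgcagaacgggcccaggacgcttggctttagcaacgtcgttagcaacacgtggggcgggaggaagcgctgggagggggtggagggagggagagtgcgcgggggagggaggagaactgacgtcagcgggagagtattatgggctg
Cbx7, chr15:79932647-79932896, minus strand: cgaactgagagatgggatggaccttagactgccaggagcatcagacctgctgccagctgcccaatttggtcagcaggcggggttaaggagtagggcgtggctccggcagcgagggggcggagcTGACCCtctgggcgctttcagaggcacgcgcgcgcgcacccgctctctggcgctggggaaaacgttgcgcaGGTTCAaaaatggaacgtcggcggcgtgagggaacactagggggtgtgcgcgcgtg
Scmh1, chr4:120405098-120405347, plus strand: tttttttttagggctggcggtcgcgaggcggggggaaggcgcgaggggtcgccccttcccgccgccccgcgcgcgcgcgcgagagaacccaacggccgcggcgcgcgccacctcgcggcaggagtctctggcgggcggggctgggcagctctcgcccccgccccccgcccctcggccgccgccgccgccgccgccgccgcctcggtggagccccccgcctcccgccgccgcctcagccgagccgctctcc
Cbx6 and this Scmh1 promoter held no hexamer, Cbx8 held 1 (GGGTCA) and Cbx7 held 2 (GGGTCA read from the opposite strand, and GGTTCA). Among promoters not printed, that of Phc1, which fell, held none, and that of Phc3 held 1 (AGGTCA). Phc2, which rose, held hexamers in every entry: AGTTCA and GGTTCA in the first, AGGTCA in the next and GGGTCA in the last. Hexamers thus did not divide the genes that fell from those that rose. The second Scmh1 entry (chr4:120452994-120453243, not printed) held GGTTCA at 2 places, read from the opposite strand, and 0 CpG dinucleotides, so the starts of this gene differed in both features. At least 1 of the 4 hexamers was in 38.6% of the 32817 promoters of the table, so their presence here is a description of the letters only. The 4 printed promoters were rich in CpG, with 20 (Cbx6), 22 (Cbx8), 23 (Cbx7) and 45 (Scmh1) CpG dinucleotides against a median of 6 over all promoters. Besides the second Scmh1 entry, those not printed held 8 (Phc1), 12 (Phc3), and 13, 1 and 34 (Phc2).

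The totals of the 24 libraries were between 42018795 and 54034789 estimated counts, at which 3 counts, taken as the smallest detectable amount, correspond to between 0.0545 and 0.0695 CPM (each count divided by its library total after TMM adjustment, on the usual CPM scale). The RA targets Hoxb1 and Cyp26a1 were higher at 6 h in both clones, by 9.88 and 8.95 on the log2 scale in BAP1-AID and by 6.90 and 7.93 in UTX-AID. The 8 markers of ESCs summed to between 4012 and 4893 CPM in every library. By gene at 6 h (edgeR, adjusted p under 0.05), 2 were higher and 3 lower in BAP1-AID, and 2 higher and 2 lower in UTX-AID. The shares of all genes are given below, and the sum does not show these opposite changes. Markers of other cells were low but not still. The 5 fibroblast markers summed to between 1.39 and 5.85 CPM, with Postn at 0 throughout. In BAP1-AID their sum went from between 2.82 and 5.85 CPM at 0 h to between 1.39 and 2.47 at 6 h, while in UTX-AID these times overlapped. By gene at 6 h (edgeR, adjusted p under 0.05), 1 of 3 tested was lower in BAP1-AID (9.67% of all genes) and 1 of 4 in UTX-AID (5.52%), with 0 higher. In BAP1-AID the 5 markers of extraembryonic endoderm went from between 3.37 and 5.42 CPM at 0 h to between 7.69 and 8.08 CPM at 6 h, the 5 of trophoblast from between 13.6 and 18.1 to between 19.2 and 22.2, and the 3 of early neural cells from between 23.2 and 27.7 to between 31.4 and 38.9, and in UTX-AID those of trophoblast went from between 5.16 and 8.32 to between 10.6 and 12.6 and those of early neural cells from between 15.6 and 17.7 to between 18.7 and 20.5, while those of extraembryonic endoderm overlapped. By gene at 6 h in BAP1-AID (edgeR, adjusted p under 0.05), 1 of 5 for extraembryonic endoderm was higher and 0 lower. Of 4 tested for trophoblast 1 was higher and 1 lower, and of 3 for early neural cells 1 and 1. Of all genes 14.4% were higher and 9.67% lower. In UTX-AID 1 of 5, 1 of 4 and 1 of 2 tested were higher, and 1 early neural gene was lower (6.92% and 5.52% of all genes). The sums do not stand for most genes of a list. The part of these markers in the RA results below was not tested. In bulk RNA, fewer cells that express a gene and less RNA per cell cannot be told apart.

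CBX transcripts fell by 6 h of RA without LIF in BAP1-AID ESCs, while calls in UTX-AID, given below, were fewer. No CBX gene among the 8 was called higher in either clone. In BAP1-AID ESCs, 7 of the 8 genes passed the test at 6 h, 5 lower (Cbx2, Cbx6, Cbx7, Cbx8 and Phc1) and 2 higher (Phc2 and Scmh1), with the −IAA and +IAA arms averaged (edgeR quasi-likelihood test, Benjamini-Hochberg adjusted p under 0.05). Of all 15695 genes tested, 24% passed at 6 h, 9.67% lower and 14.4% higher. At 3 h, 5 of the 8 passed, 3 lower (Cbx2, Cbx6 and Cbx8) and 2 higher (Phc2 and Scmh1), against 11.2% of all genes, 3.91% lower and 7.26% higher. The changes were small: with an absolute log2 fold change over 1 as a further criterion, only Cbx8 at 3 h passed (2.93% of all genes), and none at 6 h (5.12%). The median log2 fold change of the 8 at 6 h was −0.19, and that of all genes 0.0092. The 3 h and 6 h comparisons share their 0 h libraries. At 6 h, log2 fold changes went down with the GC content of the transcript across 15168 genes of BAP1-AID (Spearman's rho = −0.182, a description). In UTX-AID rho was −0.0091. After a correction for GC content and length, the same 7 genes passed at 6 h in BAP1-AID, and the share of all genes is not given for it.

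Cbx6 encodes a further Polycomb CBX subunit, and its transcript fell at both steps in BAP1-AID. In −IAA BAP1-AID ESCs the libraries held 115.8 and 123.1 CPM at 0 h, 86.8 and 92.3 at 3 h, and 76.1 and 76.3 at 6 h. In +IAA BAP1-AID ESCs they held 106.8 and 106.7, then 79.3 and 77.6, then 59.5 and 67.7 CPM. Every 3 h library was below every 0 h library and every 6 h library below every 3 h library. The log2 fold change was −0.41 ± 0.0532 (SE) at 3 h (adjusted p = 0.000215) and −0.67 ± 0.0535 at 6 h (adjusted p = 1.49e-06), and the step from 3 to 6 h was −0.27 ± 0.0535 (adjusted p = 0.01, edgeR). That last step was past the threshold for 2 of the 8 genes, Cbx6 and Cbx7, against 8.14% of all genes. Without the first +IAA library at 6 h, the step of Cbx6 was −0.22 with an adjusted p of 0.055.

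Cbx2 encodes a CBX able to compact nucleosomes. Its −IAA libraries of BAP1-AID held 45.9 and 51.3 CPM at 0 h, 32.8 and 38.5 at 3 h, and 31.4 and 36.6 at 6 h, and the +IAA libraries 44.6 and 50.2, then 38.4 and 31.7, then 32.0 and 29.99. All 0 h libraries stood above the rest, while 3 h and 6 h overlapped. The log2 fold change was −0.42 ± 0.0854 at 3 h (adjusted p = 0.00609) and −0.54 ± 0.0856 at 6 h (adjusted p = 0.00053, edgeR).

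Cbx8, the neighbour of Cbx2, was near the bottom of the range of levels. It held 2.93 and 2.35 CPM at 0 h, 1.02 and 0.889 at 3 h, and 1.49 and 1.95 at 6 h in −IAA BAP1-AID, and 2.69 and 3.46, then 1.48 and 1.49, then 2.06 and 1.36 in +IAA BAP1-AID. The 0 h libraries did not overlap with those of either later time. The fall was deepest at 3 h, with a log2 fold change of −1.24 ± 0.206 (adjusted p = 0.00146), and was −0.70 ± 0.201 at 6 h (adjusted p = 0.0231, edgeR). The 6 h call was lost when any of 4 of the 12 libraries was left out: the first −IAA library at 0 h (adjusted p = 0.0789), the first −IAA library at 6 h (0.0795), the second +IAA library at 0 h (0.0829) and the second +IAA library at 6 h (0.0804).

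Cbx7 was slightly lower at 6 h, with no change past the threshold at 3 h. The −IAA BAP1-AID libraries held 119.7 and 110.3 CPM at 0 h, 122.8 and 114 at 3 h, and 101.6 and 99.8 at 6 h, and the +IAA libraries 121.4 and 115.1, then 109.4 and 118.1, then 101.4 and 98.4. Libraries of 0 and 3 h overlapped, and all 6 h libraries were below them. The log2 fold change was 0.02 ± 0.0503 at 3 h (adjusted p = 0.921) and −0.19 ± 0.0503 at 6 h (adjusted p = 0.0145), and the step from 3 to 6 h was −0.21 ± 0.0503 (adjusted p = 0.0252, edgeR). Without the first −IAA library at 0 h, the 6 h value was −0.17 with an adjusted p of 0.057. The step from 3 to 6 h lost its call when any of 5 libraries was left out: the −IAA libraries at 6 h (adjusted p = 0.0871 and 0.104), the +IAA libraries at 6 h (0.0823 and 0.117) and the second +IAA library at 3 h (0.129). With GC content and length of the transcripts corrected for, it was −0.12 (adjusted p = 0.184), and the step of Scmh1 was then past the threshold (0.35, adjusted p = 0.031, edgeR).

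Among the PHC genes, Phc1 is the abundant member, and it fell by little. Its BAP1-AID libraries held between 433.6 and 470.7 CPM at 0 h (median 461.9), between 404.8 and 448.7 at 3 h (median 432.3) and between 377.5 and 414 at 6 h (median 402.9), so that 0 h and 6 h did not overlap. The log2 fold change at 6 h was −0.17 ± 0.0462 (adjusted p = 0.0172, edgeR), and without the second −IAA library at 0 h it was −0.14 with an adjusted p of 0.0646. Phc2 rose. It went from 10.95 and 10.3 CPM at 0 h to 15.5 and 14.9 at 3 h and 13.3 and 13.1 at 6 h in −IAA BAP1-AID, and from 11.2 and 10.8 to 13.1 and 13.6 and then 14.6 and 12.4 in +IAA BAP1-AID. All 0 h libraries were below all later ones, with log2 fold changes of 0.42 ± 0.0728 at 3 h (adjusted p = 0.00204) and 0.33 ± 0.0729 at 6 h (adjusted p = 0.00538, edgeR). Without the first +IAA library at 6 h, the 6 h value was 0.25 with an adjusted p of 0.0518. Phc3 held between 16.9 and 26.1 CPM with overlapping times, and its 6 h value was −0.18 ± 0.0738 (adjusted p = 0.0976).

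Scmh1 had the largest rise of the 8. It went from 13.0 and 14.4 CPM at 0 h to 18.5 and 16.8 at 3 h and 21.2 and 22.5 at 6 h in −IAA BAP1-AID, and from 16 and 12.3 to 16.9 and 19.1 and then 23.2 and 20.7 in +IAA BAP1-AID. The 3 times did not overlap. The log2 fold change was 0.38 ± 0.0918 at 3 h (adjusted p = 0.0191) and 0.67 ± 0.0914 at 6 h (adjusted p = 0.000159, edgeR). The 3 h call was lost without the first −IAA library at 0 h (adjusted p = 0.0777), the second +IAA library at 0 h (0.105) or the second +IAA library at 3 h (0.111). Over the 8 genes of BAP1-AID, libraries of 6 h and 0 h did not overlap for 7 (19.3% of all genes) and those of 3 h and 0 h for 5 (10.6%).

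**Figure D1:**
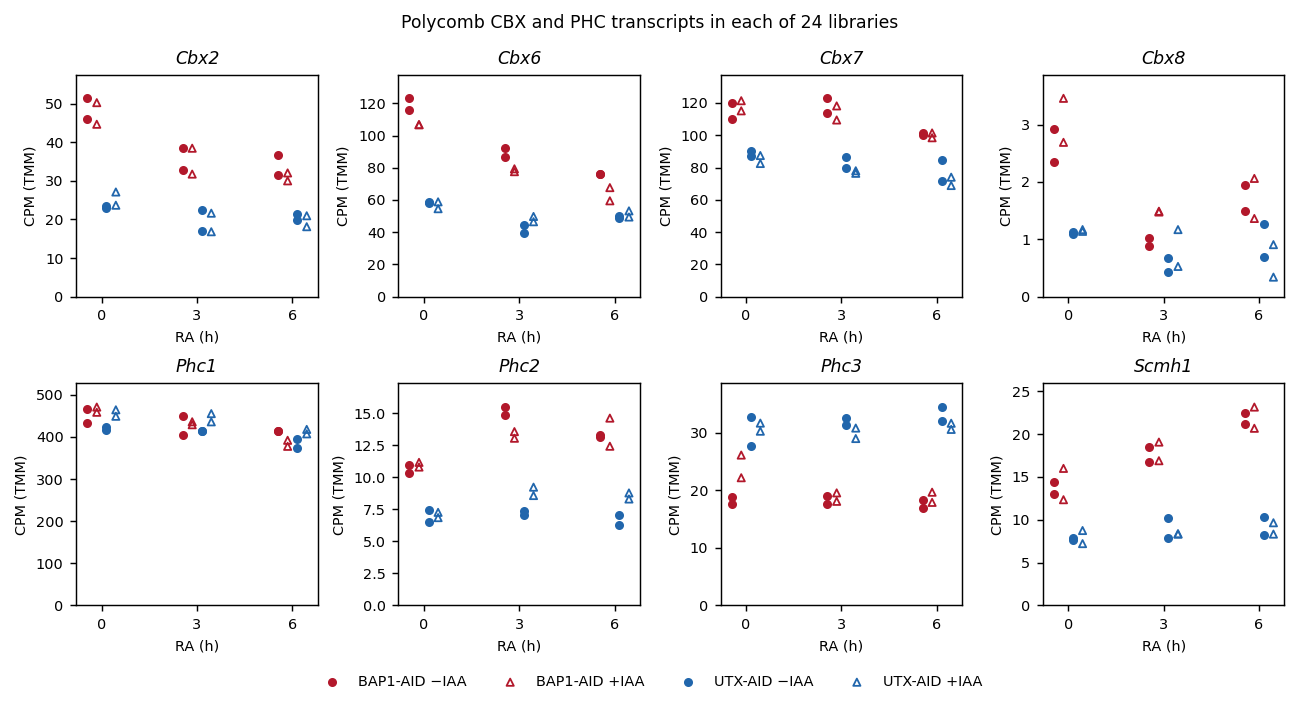
Level of each of the 8 genes in CPM (TMM scaled, vertical axis from 0) at 0, 3 and 6 h of RA (horizontal axis); each point is 1 library, circles −IAA and triangles +IAA, red BAP1-AID and blue UTX-AID, with points of a time set apart sideways. In BAP1-AID, Cbx6 falls from between 106.7 and 123.1 CPM to between 59.5 and 76.3 CPM and Scmh1 rises from between 12.3 and 16 CPM to between 20.7 and 23.2 CPM, and Phc3 is the gene that stands higher in UTX-AID.

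In UTX-AID ESCs the calls were fewer. Of the 8 genes, 1 passed at 3 h (Cbx6, lower), against 8.26% of 16268 genes (2.75% lower and 5.51% higher), and 1 at 6 h (Cbx7, lower), against 12.4% (5.52% lower and 6.92% higher). None passed both criteria at 3 h (1.76% of all genes) or at 6 h (2.61%). None passed from 3 to 6 h (1.67%), where 2 (Cbx6 and Phc1) had an unadjusted p under 0.05 and DESeq2 called 0. Cbx6 held 58.6 and 58.1 CPM at 0 h, 39.5 and 44.7 at 3 h, and 48.5 and 49.9 at 6 h without IAA, and 58.8 and 54.6, then 46.5 and 49.8, then 49.4 and 53.2 with IAA. All 0 h libraries were above the later ones. From 3 to 6 h the mean of Cbx6 went up, from 42.1 to 49.2 CPM without IAA and from 48.1 to 51.3 with IAA. Libraries of these 2 times overlapped. Its log2 fold change was −0.33 ± 0.0551 at 3 h (adjusted p = 0.000762) and −0.17 ± 0.0549 at 6 h (adjusted p = 0.0538, edgeR). At 6 h DESeq2 called 3 of the 8 genes (Cbx6, Cbx7 and Phc1), and after the correction for GC content and length Cbx6 passed as well (−0.19, adjusted p = 0.0271, edgeR). The shares of all genes under these alternatives are not given here. Cbx2 also had its 0 h libraries, between 23.0 and 27.1 CPM, above those of 3 h, between 16.8 and 22.4 CPM, and of 6 h, between 18.1 and 21.3 CPM. Its log2 fold changes were −0.30 ± 0.0969 (adjusted p = 0.0742) and −0.25 ± 0.0968 (adjusted p = 0.115, edgeR). These were the 2 of the 8 genes whose libraries did not overlap, at 3 h (11.5% of all genes) and at 6 h (15.7%).

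Cbx7 of UTX-AID held 90.4 and 86.9 CPM at 0 h, 79.7 and 86.6 at 3 h, and 84.4 and 71.5 at 6 h without IAA, and 82.5 and 87.4, then 78.0 and 76.4, then 68.8 and 74.0 with IAA. Libraries of 0 h and 6 h overlapped. Its value at 6 h was −0.20 ± 0.0577 (adjusted p = 0.0363, edgeR), and the call was lost when any of 6 of the 12 libraries was left out, with adjusted p up to 0.166 (without the second −IAA library at 6 h). The other 5 libraries were the first −IAA library at 0 h (0.104), both +IAA libraries at 0 h (0.0564 and 0.133) and both +IAA libraries at 6 h (0.148 and 0.0524). Phc1 was at −0.11 ± 0.0361 (adjusted p = 0.0516), Phc2 at 0.13 ± 0.106 (0.545), Scmh1 at 0.24 ± 0.117 (0.242) and Cbx8, at 0.341 to 1.27 CPM, at −0.51 ± 0.389 (0.498).

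The difference in RA response between the clones was tested for each gene in a fit of all 24 libraries. It passed for Cbx6 at 6 h, where the response of UTX-AID minus that of BAP1-AID was 0.50 ± 0.0779 on the log2 scale (adjusted p = 0.000468, edgeR), against 2.71% of 16816 genes. For the other 7 genes no difference was past the threshold at 6 h. There, 4 of the 8 (Cbx2, Cbx6, Phc3 and Scmh1) had an unadjusted p under 0.05, and DESeq2 called 1 (Cbx6). For none of the 8 was it past the threshold at 3 h (0.755% of all genes), where 0 had an unadjusted p under 0.05 and DESeq2 called 0. The fewer calls in UTX-AID are therefore not by themselves differences between the clones, and these tests do not show equal responses either. Scmh1 differed by −0.43 ± 0.15 (adjusted p = 0.149) and Cbx2 by 0.29 ± 0.137 (adjusted p = 0.366).

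**Figure D2:**
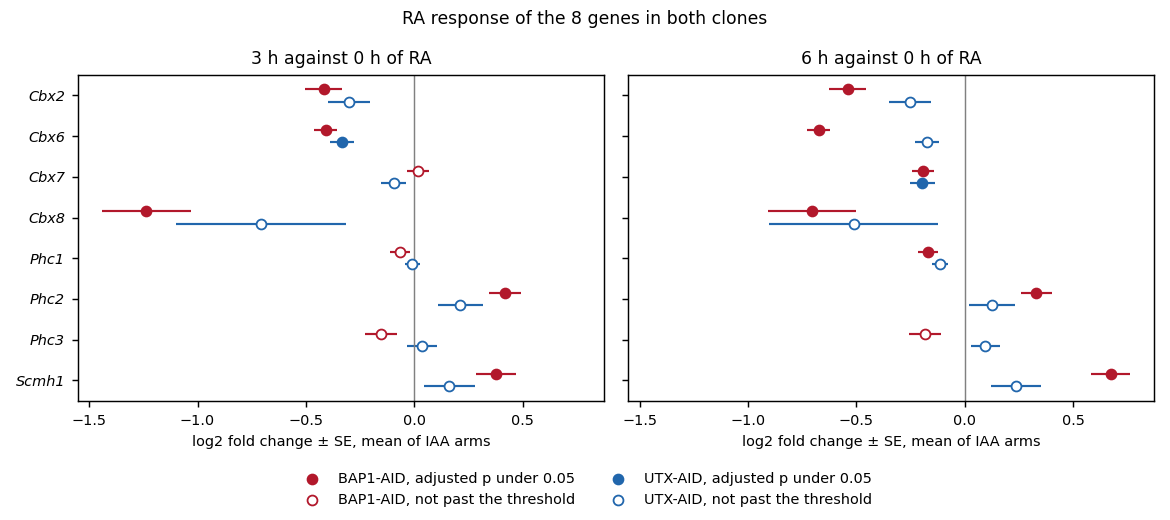
Log2 fold change (horizontal axis, error bars ± SE) at 3 h (left) and 6 h (right) against 0 h of RA, with the IAA arms averaged, for each gene in BAP1-AID (red) and UTX-AID (blue); filled points are past an adjusted p of 0.05. At 6 h, Cbx6 sits at −0.67 in BAP1-AID and −0.17 in UTX-AID, while Cbx7 sits at −0.19 and −0.20.

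Within single arms the calls were fewer, as each rests on 2 libraries against 2. In −IAA BAP1-AID, Cbx6, Cbx8 and Phc2 passed at 3 h (7.37% of all genes) and Cbx2, Cbx6, Phc2 and Scmh1 at 6 h (15.9%). In +IAA BAP1-AID, Cbx6 passed at 3 h (6.52%) and Cbx2, Cbx6, Phc1, Phc3 and Scmh1 at 6 h (15.4%). In UTX-AID, Cbx6 passed at 3 h without IAA (4.84%), and no gene of the 8 at 6 h without IAA (6.9%), at 3 h with IAA (3.57%) or at 6 h with IAA (6.45%). Those 3 comparisons had 2, 3 and 3 of the 8 genes at an unadjusted p under 0.05, and DESeq2 called 0 in each. With each of the 12 libraries of a clone left out in turn, Cbx6 held its call in each arm and time where it passed, except at 3 h without IAA in BAP1-AID (adjusted p = 0.0542 without the second −IAA library at 0 h), and Cbx2 with IAA and Scmh1 without IAA held theirs at 6 h. The other calls of BAP1-AID were lost at least once, with highest adjusted p of 0.0673 for Cbx8 (without the first −IAA library at 0 h), 0.057 for Phc2 at 3 h (the second −IAA library at 0 h), 0.232 for Phc2 at 6 h (the first −IAA library at 6 h) and 0.127 for Cbx2 without IAA (the first −IAA library at 6 h). With IAA at 6 h they were 0.124 for Phc1 (the second +IAA library at 6 h), 0.313 for Phc3 (the first +IAA library at 0 h) and 0.0651 for Scmh1 (the second +IAA library at 0 h).

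The RA response itself was compared between the arms by the interaction of RA and IAA. None of the 8 genes passed in BAP1-AID at 3 h (0.0% of all genes) or 6 h (0.153%), or in UTX-AID at 3 h (0.0123%) or 6 h (0.0%). At an unadjusted p under 0.05 stood 1 gene at 3 h in each clone, Phc3 in BAP1-AID and Cbx6 in UTX-AID, and 0 at 6 h, and DESeq2 called 0. The interaction with the lowest adjusted p was that of Phc3 at 6 h in BAP1-AID, −0.32 ± 0.148 (adjusted p = 0.492, edgeR). For Cbx7 at 6 h it was −0.06 ± 0.101 (BAP1-AID) and −0.05 ± 0.115 (UTX-AID), on the log2 scale in each clone.

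To compare the genes with each other, CPM were divided by the length of their exons in kb. Phc1 was the most abundant, with a median over 12 libraries of 39.3 CPM per kb in BAP1-AID against 38.0 in UTX-AID, and did not overlap with the next, Cbx7, at 17.1 and 12.3. Cbx2 (8.41 and 4.82) and Cbx6 (7.83 and 4.70) followed and overlapped with each other in both clones. In BAP1-AID these were followed by Scmh1 (2.27), and then by Phc2 (1.33), Phc3 (0.990) and Cbx8 (0.468), where each overlapped with its neighbour in the order. In UTX-AID the order was Phc3 (1.68), Scmh1 (1.07), Phc2 (0.747) and Cbx8 (0.272), with overlap between Scmh1 and Phc2.

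Each CBX was then taken as a share of the 4 CBX genes among the 8, Cbx2, Cbx6, Cbx7 and Cbx8, per kb. Their summed level in BAP1-AID was between 39.3 and 40.5 CPM per kb at 0 h (median 40.001), between 32.8 and 34.9 at 3 h (median 33.8) and between 28.5 and 31.1 at 6 h (median 29.4), with no overlap between the times. In UTX-AID it was between 23.7 and 24.8 at 0 h, between 19.8 and 22.5 at 3 h and between 19.3 and 22.1 at 6 h. Cbx7 took the largest share at every time. In BAP1-AID its share was between 41.4% and 47.0% at 0 h (median 44.7%), between 49.7% and 54.8% at 3 h (median 52.2%) and between 48.8% and 53.6% at 6 h (median 52.0%), so that all 0 h libraries were below all later ones. In UTX-AID the medians were 54.01%, 58.7% and 53.7%, and the times overlapped.

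The other 3 genes had lower median shares at 3 and 6 h than at 0 h in BAP1-AID. There the median share of Cbx2 went from 27.0% to 23.2% and 24.3%, that of Cbx6 from 26.4% to 23.1% and 22.8%, and that of Cbx8 from 1.92% to 1.01% and 1.52%. In UTX-AID, Cbx2 was at 22.1%, 20.7% and 21.6%, Cbx6 at 22.4%, 20.3% and 23.2%, and Cbx8 at 1.26%, 0.816% and 1.003%. The log2 ratio of Cbx2 to Cbx7 per kb was −0.68 ± 0.199 (SD, n = 2) at 0 h and −1.01 ± 0.172 at 6 h in −IAA BAP1-AID, and −1.37 ± 0.0644 and −1.36 ± 0.238 in −IAA UTX-AID. In neither clone were the 6 h libraries below the 0 h libraries in the share of Cbx7. Of the PHC transcripts per kb, Phc1 in BAP1-AID made up a median of 94.9% at 0 h and 94.1% at 6 h, and of Phc2 the median share went from 2.50% to 3.42%, with no overlap between the 0 h and 6 h libraries.

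**Figure D3:**
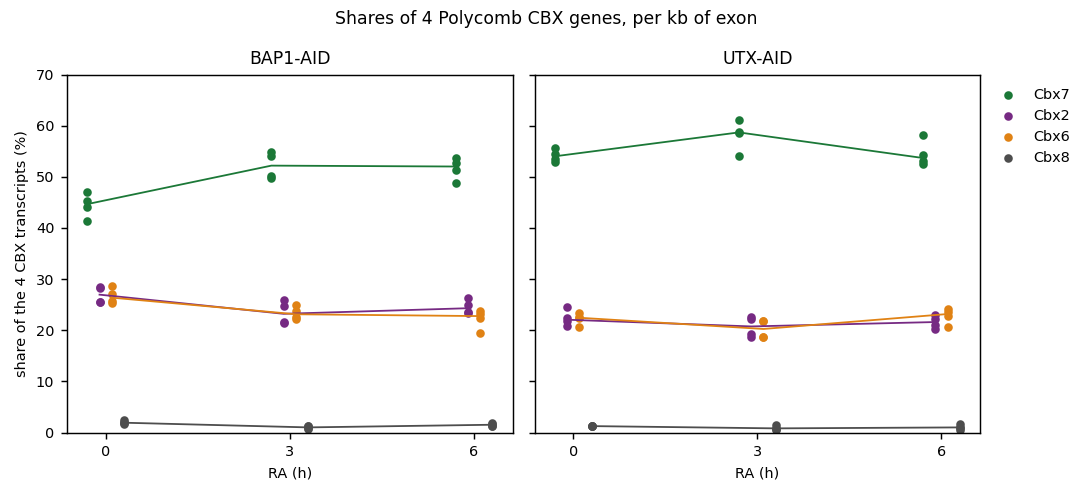
Share of each CBX gene (per kb of exon, percent of the 4 genes, vertical axis from 0) after 0, 3 and 6 h of RA (horizontal axis), with BAP1-AID left and UTX-AID right; points are the 4 libraries of a time, both IAA arms together, and lines join their medians. Cbx7 goes from a median of 44.7% to 52.0% in BAP1-AID and from 54.01% to 53.7% in UTX-AID, and the other 3 genes have lower medians at 6 h than at 0 h in BAP1-AID.

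With IAA averaged over the RA times, few of the 8 genes passed, and those calls moved with a correction for base composition. In BAP1-AID, 1 of the 8 passed (Cbx6, −0.22 ± 0.0435, adjusted p = 0.00186, edgeR), against 36.1% of all genes. The transcript of the tagged gene was at the same level in both arms, with a difference for Bap1 of 0.00 ± 0.0384 (adjusted p = 0.973). Across 15168 genes, log2 differences between these arms went down with the GC content of the transcript (Spearman's rho = −0.472, a description), and 5 of the 8 genes (Cbx2, Cbx6, Cbx7, Phc2 and Cbx8) had a GC content between 54.9% and 58.4%, while Phc3 was at 43.8%. After a correction for GC content and length, Cbx6 was at −0.08 (adjusted p = 0.142), Cbx7 went from −0.03 to 0.18 (adjusted p = 0.00491) and Phc3 from 0.16 (adjusted p = 0.0516) to −0.18 (adjusted p = 0.0658), so that 1 gene, now Cbx7, passed against 28.3% of all genes. The libraries of the arms overlapped for all 8 genes (15.2% of all genes did not overlap).

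At single times in BAP1-AID, Phc3 passed at 0 h (18.5% of all genes), with 26.1 and 22.2 CPM with IAA against 18.8 and 17.6 without, a difference of 0.39 ± 0.104 (adjusted p = 0.0215), which was −0.034 after the correction. That call was lost without either −IAA library at 0 h or without the first +IAA library at 0 h (adjusted p up to 0.192). Cbx6 passed at 6 h (12.5%), at −0.29 ± 0.0757 (adjusted p = 0.0273), and was at −0.09 after the correction. Its call was lost when any of 7 of the 12 libraries was left out, namely the first +IAA library at 6 h (adjusted p = 0.346, the highest), both −IAA libraries at 6 h and the 4 +IAA libraries at 0 and 3 h. Phc1 passed at 6 h only after the correction, at −0.16 (adjusted p = 0.0418, edgeR). None passed at 3 h (13.3%), where Cbx6 alone had an unadjusted p under 0.05 and DESeq2 called 0. In UTX-AID, whose arms showed no such trend with GC content (rho = 0.0227), none of the 8 passed over the RA times (2.62%) or at 0 h (0.043%), 3 h (0.264%) or 6 h (0.0307%), and the arms overlapped for all 8 (1.16% did not overlap). Over the RA times, 2 genes had an unadjusted p under 0.05 and DESeq2 called 1. That gene was Phc1, at 0.11 ± 0.0295 (adjusted p = 0.0594, edgeR) and 0.12 after the correction (adjusted p = 0.0448), where it was the only gene to pass (2.85%). Kdm6a, which encodes the tagged UTX, was at 0.13 ± 0.036 (adjusted p = 0.0717).

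The clones differed in 7 of the 8 genes over the 6 conditions, against 74.9% of all genes, and in 7 of the 8 at 0 h without IAA, against 52.6%. Over the 6 conditions the log2 difference of UTX-AID minus BAP1-AID was −1.09 ± 0.181 for Cbx8 (adjusted p = 1.03e-05), −1.04 ± 0.0616 for Scmh1 (3.46e-13) and −0.85 ± 0.0565 for Cbx2 (3.1e-12, edgeR). It was −0.78 for Cbx6, −0.76 for Phc2 and −0.46 for Cbx7, while Phc3 was higher in UTX-AID, at 0.70 ± 0.0413 (3.16e-13). Phc3 libraries of UTX-AID held between 27.7 and 34.5 CPM, all above the 16.9 to 26.1 CPM of BAP1-AID. Phc1 was at −0.02 ± 0.0247 (adjusted p = 0.437).

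Differences between the clones also went with GC content (rho = −0.285 over 16208 genes). After the correction all 8 genes passed (73.6% of all genes), with Cbx8 at −0.71, Scmh1 at −0.69, Cbx2 at −0.44, Cbx6 at −0.28, Phc2 at −0.27, Cbx7 at −0.07 (adjusted p = 0.0357), Phc3 at 0.34 and Phc1 at 0.38. At 0 h without IAA, 3 of the 8 passed after the correction (47.8%), namely Cbx2 (−0.56), Cbx6 (−0.46) and Phc1 (0.33). There, without the correction, Cbx8 lost its call when the first −IAA library of BAP1-AID at 0 h (adjusted p = 0.0913) or either −IAA library of UTX-AID at 0 h was left out. Markers of the 2-cell embryo summed to between 0.462 and 1.25 CPM in BAP1-AID and between 11.2 and 21.3 CPM in UTX-AID, and their part in these differences was not tested. With 1 clone for each tagged protein, the clone and the tagged protein cannot be told apart. The labels name no batch, so a batch that goes with the clone could not be told apart either.

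Between the clones, the IAA effect was unequal for 2 of the 8 genes, against 25.9% of all genes. For Cbx6 the effect in UTX-AID minus that in BAP1-AID was 0.28 ± 0.0636 (adjusted p = 0.00237), and 0.15 after the correction (adjusted p = 0.0945). For Phc3 it was −0.23 ± 0.0824 (adjusted p = 0.0423), and 0.14 after the correction (adjusted p = 0.336). The call of Phc3 was lost when any of 14 of the 24 libraries was left out, with adjusted p up to 0.117 without the first +IAA library of BAP1-AID at 0 h. After the correction, Cbx7 (−0.28, adjusted p = 0.00213) and Phc1 (0.15, adjusted p = 0.0102) passed instead, against 19.9% of all genes. The difference in the RA response of Cbx6 at 6 h was 0.45 after the correction (adjusted p = 0.000724, edgeR).

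**Figure D4:**
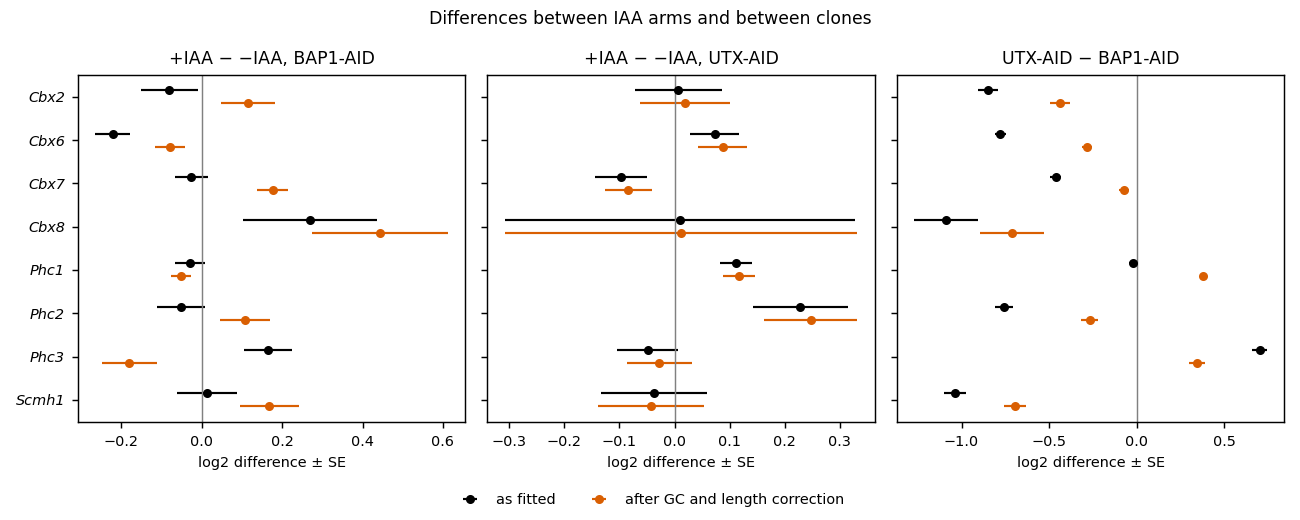
Log2 difference (horizontal axes, which differ in scale between the panels, with error bars ± SE) of +IAA minus −IAA over the RA times in BAP1-AID (left) and UTX-AID (middle), and of UTX-AID minus BAP1-AID over the 6 conditions (right), as fitted (black) and after the correction for GC content and length (orange). The correction moves Cbx6 from −0.22 to −0.08 and Cbx7 from −0.03 to 0.18 in BAP1-AID, leaves the genes of UTX-AID nearly in place, and moves Phc1 from −0.02 to 0.38 between the clones.

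Other genes of the Polycomb system were counted by list for 6 h of RA. Of 11 genes for the catalytic core of PRC1 and its PCGF-type partners, 2 were higher and 1 lower in each clone: Rybp rose (0.58 ± 0.0893 in BAP1-AID, adjusted p = 0.000433, and 0.36 in UTX-AID, 0.000153), as did Pcgf3 (0.30 and 0.21), and Kdm2b, whose protein brings a variant PRC1 to CpG islands, fell (−0.66 ± 0.0538, 1.87e-06, and −0.56, 1.42e-05, edgeR). Of 12 genes of PRC2, which methylates H3K27, 3 were higher in BAP1-AID and 2 were higher and 1 lower in UTX-AID. Mtf2 (0.72 and 0.45) and Aebp2 (0.60 and 0.71), both accessory subunits, rose in both clones, while Suz12, a core subunit, was at 0.26 ± 0.041 (adjusted p = 0.000474) in BAP1-AID and 0.03 ± 0.0402 (0.728) in UTX-AID. Among all genes of BAP1-AID, 9.67% were lower and 14.4% higher, and for UTX-AID these shares were 5.52% and 6.92%.

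Of 6 tested genes with MBT or SAM domains outside the 8, none rose, while 4 fell in UTX-AID (5.52% of all genes) and 3 fell in BAP1-AID (9.67%). L3mbtl3 fell by 0.88 ± 0.114 on the log2 scale in BAP1-AID (adjusted p = 0.000114) and by 0.96 ± 0.114 in UTX-AID (2.03e-05, edgeR), L3mbtl2 by 0.27 and 0.22, and Sfmbt2 by 0.35 and 0.64.

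The CBX genes of the HP1 family (Cbx1, Cbx3 and Cbx5), whose proteins bind methylated H3K9 and are not part of PRC1, were counted as well. At 6 h, 1 of the 3 was higher in BAP1-AID (Cbx1, 0.23 ± 0.0686, adjusted p = 0.0301, against 14.4% of all genes) while in UTX-AID Cbx1 was at 0.07 ± 0.0392 (0.279), Cbx3 at −0.08 ± 0.0439 (0.273) and Cbx5 at 0.05 ± 0.0408 (0.533). With IAA, all 3 were higher in BAP1-AID, where 36.1% of all genes passed in either direction, Cbx5 by 0.40 ± 0.05 (adjusted p = 6.24e-05), Cbx3 by 0.37 ± 0.0531 (0.000186) and Cbx1 by 0.18 ± 0.056 (0.0267), while in UTX-AID Cbx5, with the lowest p of the family, was at −0.10 ± 0.0333 (adjusted p = 0.167). After the correction for GC content these were, with 28.3% of all genes passing, 0.06 (adjusted p = 0.184), 0.27 (0.00261) and 0.24 (0.023, edgeR). Cbx3 has near-identical copies elsewhere in the genome, so its counts are uncertain.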

How the data were processed

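RNA-seq of polyadenylated RNA from 24 libraries (2 in each of 12 groups of clone, IAA arm and RA time) was used. The authors aligned reads to mm39 with HISAT2 (2.2.1), converted files with SAMtools (1.19) and deposited estimated counts per gene from StringTie (2.2.1), written as whole numbers. The annotation and strand setting are not given in the sources used here. deepTools (3.5.4), also in the submitters' processing notes, does not bear on the counts.

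The counts were fitted per clone (12 libraries) with edgeR (4.0.16, R 4.3.3, limma 3.58.1) by the quasi-likelihood test, with TMM factors (0.965 to 1.03 over the 24 libraries) and filterByExpr (minimum count 10, minimum total 15), and p-values were adjusted by Benjamini-Hochberg over all genes tested. The clones were compared in a fit of all 24. Shares of all genes passing a test are from edgeR, and none is given for DESeq2. Dispersion corresponded to a coefficient of variation of 11.6% (BAP1-AID) or 11.9% (UTX-AID). Replicates correlated at 0.982 to 0.986 (log2 of counts plus 1, across genes) and differed beyond sampling noise. Their chi-square per gene was lowest at 6.08 (+IAA BAP1-AID at 6 h). It was highest at 75.1 for −IAA BAP1-AID at 3 h, a pair used in the 3 h comparisons, and 26.1 for −IAA BAP1-AID at 0 h, the next. Alternatives were DESeq2 (1.42.0), RLE size factors, no filter, all 24 libraries in 1 fit, a replicate block, offsets from splines (5 degrees of freedom) on GC content and transcript length, and each library left out. The leave-out fits of the clone and single-arm comparisons and the canonical transcript length were added after seeing the data. Per-kb levels used exon lengths of GENCODE vM39, where 23897 genes (91.0%) matched by symbol. Scripts were tested on simulated data. Values and figures used Python (3.11.15), numpy (2.4.6), pandas (2.3.3) and matplotlib (3.10.9).

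The members and lists were chosen with earlier results of these data known. Named genes were all 8 members, the HP1 genes, and of each other list at most 4 genes with the smallest adjusted p at 6 h of RA in BAP1-AID, of which those past the threshold are given. A few genes of the lists are not reported here, and shares were taken over the CBX genes among the 8.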

Additional observations from a re-analysis of the deposited data

Results flagged for a closer look

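The RA response of Cbx6 at 6 h differed between the clones, by 0.503 on the log2 scale (UTX-AID minus BAP1-AID, adjusted p = 0.000468, edgeR quasi-likelihood test), against 2.71% of all genes. It stayed past the threshold in each of 29 alternatives. The effect of IAA on Cbx6 differed between the clones by 0.275 (adjusted p = 0.00237) and that on Phc3 by −0.231 (adjusted p = 0.0423, edgeR). Of all genes 25.9% passed this comparison, so 2 of the 8 is near the general share. Neither of these IAA differences was past the threshold after the correction for GC content and length, where they were 0.15 and 0.14.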

How the results depend on the processing

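The RA calls of BAP1-AID (5 of the 8 genes at 3 h and 7 at 6 h) were the same in number after the correction for GC content and length, while counts for IAA, the clones and RA in UTX-AID moved. In BAP1-AID, IAA at 0 h went from 1 gene to 0 with the GC correction, and IAA over the RA times from 1 to 2 with RLE size factors or all 24 libraries in 1 fit. In UTX-AID, IAA over the RA times went from 0 to 1 with DESeq2, the GC correction, the replicate block or both together. RA at 3 h in UTX-AID went from 1 to 2 with no filter, all 24 libraries, the replicate block, or the block with the GC correction, and RA at 6 h from 1 to 2 with the GC correction or no filter, to 3 with DESeq2 or all 24 libraries, and to 4 with the replicate block, alone or with the GC correction. The clones at 0 h went from 7 to 3 with the GC correction, and the difference in IAA effect from 2 to 1 with no filter. Directions turned with the GC correction for Phc3 with IAA at 0 h in BAP1-AID (−0.034, and −0.0353 with the block), Cbx7 with IAA in BAP1-AID (0.18, also with the block), Cbx7 (0.12) and Phc1 (0.33) between the clones at 0 h, Phc1 between the clones over the 6 conditions (0.38) and Phc3 in the difference of IAA effects (0.14). In these the cause was not tested beyond the correction itself.

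With each library left out, the genes passing ranged from 4 to 6 for RA at 3 h, 5 to 8 at 6 h and 0 to 4 from 3 to 6 h in BAP1-AID, and 1 to 2 at 3 h and 0 to 2 at 6 h in UTX-AID. For IAA they ranged from 0 to 1 at 0 h, 0 to 1 at 6 h and 1 to 2 over the RA times in BAP1-AID, and 0 to 1 over the RA times in UTX-AID. Between the clones they ranged from 6 to 7 at 0 h and 1 to 3 for the IAA effect, and were 7 over the 6 conditions and 1 for RA at 6 h throughout. Deviations of libraries with the same replicate number correlated at −0.0538 to 0.280 over 15 pairs of groups in BAP1-AID (1 pair over 0.1) and 0.0274 to 0.256 in UTX-AID (10 pairs over 0.1). Since pairing was taken to need every pair over 0.1, the block is given here only. Of 5720 values under an alternative, 223 changed sign with neither value past the threshold. Cbx8, at 0.341 to 3.46 CPM, is the gene most limited by depth.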

Other observations

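With edgeR as first fitted, Cbx7 was the one gene of the 8 past the threshold at 6 h of RA in both clones. With DESeq2, Cbx6, Cbx7 and Phc1 were, and with the correction for GC content and length Cbx6 and Cbx7 were. The share of all genes that pass in both clones is not given here, so these counts have no background beside them. The call of Cbx7 in UTX-AID was lost when any of 6 of the 12 libraries was left out. Over the 24 libraries, each centred on the mean of its clone, the levels most like those of Cbx7 among 8495 genes were those of Bst2 (Pearson's r = 0.841), Dnmt3l (0.839), a cofactor of DNA methylation, and Meg3 (0.838), an imprinted noncoding RNA. These are descriptions over libraries that share RA times and IAA arms. With the longest transcript as the length of each gene, the median share of Cbx7 in BAP1-AID was 41.7% at 0 h and 48.9% at 6 h, and with the canonical transcript 50.4% and 57.6%.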
